A study of Mus musculus with 4 samples.

Results

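Collagens, other matrix proteins and contractile proteins of the stromal cell were examined in mouse bone marrow macrophages labelled Jmjd3-/- or wild type. The set names 43 genes, chosen by symbol with earlier results of these data known, and 42 of them had a probe set assigned to 1 gene, out of 18193 such genes on the array. Fbn1 was not analysed here. Each gene was represented by its brightest probe set over the 4 arrays, and 40 of the 42 reached log2 6, the floor for testing, on at least 1 array. Lum and Eln stayed under it on all 4.

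Bone marrow cells were grown for 5 days with M-CSF, the growth factor that drives macrophage differentiation. The groups were Jmjd3-/- cells given lipopolysaccharide (LPS, a bacterial cell wall component) at 100 ng/ml for 4 h, Jmjd3-/- cells left unstimulated, wild-type cells given the same LPS, and wild-type cells left unstimulated. Each group had 1 array. Jmjd3 is a histone H3 lysine 27 demethylase encoded by Kdm6b. The labels give neither the deleted part of the gene, the strain background, the age or sex of the mice, nor whether cells were pooled, and they do not say that the 4 samples came from separate animals.

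Fibrillar collagens are secreted as triple-helical procollagen, folded with the help of the chaperone Serpinh1, and cross-linked outside the cell by lysyl oxidases. Fibroblasts, marrow stromal cells and smooth muscle cells make most of this matrix, and when they contract they use smooth muscle actin and its partners Tagln, Myl9, Cald1 and the tropomyosins. Macrophages themselves are known to make fibronectin, thrombospondin 1 and versican.

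Upstream sequence is shown for 2 contractile and 2 fibrillar collagen genes, because every gene of these groups rose in the knockout. Each is the 250 bases before the annotated gene start in RefSeq (GRCm38.p6), written 5′ to 3′ on the gene's strand. They are Myl9 at chr2:156775214-156775463 (+), Acta2 at chr19:34255374-34255623 (-), Col3a1 at chr1:45311288-45311537 (+) and Col1a2 at chr6:4505368-4505617 (+). Capitals mark the CArG box, to which serum response factor binds, TATAAA, or CAGAC, the core of a Smad site, on either strand.
Myl9: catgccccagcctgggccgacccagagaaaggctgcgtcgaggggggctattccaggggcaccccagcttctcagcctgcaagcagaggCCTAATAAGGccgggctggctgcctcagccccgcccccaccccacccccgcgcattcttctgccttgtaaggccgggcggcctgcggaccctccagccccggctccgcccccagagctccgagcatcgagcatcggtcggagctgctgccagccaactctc
Acta2: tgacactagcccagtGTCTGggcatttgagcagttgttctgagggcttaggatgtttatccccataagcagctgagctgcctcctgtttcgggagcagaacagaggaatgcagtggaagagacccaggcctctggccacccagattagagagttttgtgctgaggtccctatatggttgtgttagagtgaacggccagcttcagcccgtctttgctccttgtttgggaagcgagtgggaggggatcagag
Col3a1: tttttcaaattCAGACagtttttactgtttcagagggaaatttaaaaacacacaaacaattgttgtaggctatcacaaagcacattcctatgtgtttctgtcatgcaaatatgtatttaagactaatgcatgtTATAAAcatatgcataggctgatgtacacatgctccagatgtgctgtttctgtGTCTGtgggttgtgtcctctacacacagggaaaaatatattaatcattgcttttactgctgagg
Col1a2: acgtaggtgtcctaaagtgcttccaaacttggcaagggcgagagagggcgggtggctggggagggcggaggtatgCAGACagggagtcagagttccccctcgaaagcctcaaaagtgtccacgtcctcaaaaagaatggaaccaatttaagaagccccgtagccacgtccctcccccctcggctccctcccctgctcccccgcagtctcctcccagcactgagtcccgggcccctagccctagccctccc

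Of the measured genes 27 had such a sequence. The others, Col1a1, Tagln and Has2 among them, had none and were not searched. The strict CArG box, 6 bases that are each A or T between CC and GG, was present in Myl9 alone (3.70% of them, against 1.62% of 27025 genes with a sequence). With 1 of the 6 inner bases free, a search added after the sequences were seen, 5 genes had a match (18.5%, against 9.78%), namely Acta2, Col1a2, Col6a3, Myl9 and Timp3. The Acta2 sequence above holds 2 such runs, ccctatatgg and ccttgtttgg. TATAAA stood in 5 (18.5%, against 14.3%), namely Cald1, Col3a1, Igfbp4, Postn and Thbs2. TGANTCA, the AP-1 site, was found in Cald1 and Col6a1 (7.41%, against 7.82%), and CAGAC in 15 (55.6%, against 45.8%). These are matches of letters on both strands, motifs were free to overlap, and the shares were not tested.

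The arrays were alike in overall level, with medians between 4.15 and 4.24 on the log2 scale. Kdm6b, the targeted gene, read 10.82 and 9.82 in Jmjd3-/- cells (LPS, then unstimulated) and 11.23 and 10.33 in wild-type cells on its brightest probe set. A dimmer one was higher in Jmjd3-/- cells, at 6.07 and 5.35, against 5.22 and 4.71 in wild-type cells, and the other was under the floor throughout. These probe sets do not show the loss of the gene, so that the genotype labels could not be checked by them. All 12 measured macrophage markers reached the floor, and Csf1r, the M-CSF receptor, read 12.16 and 13.12 in Jmjd3-/- cells, against 12.26 and 12.90 in wild-type cells. In the values below the LPS array of a genotype is given before the unstimulated one.

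Collagen, matrix and contractile genes were higher in Jmjd3-/- cells in both states. Of the 42 genes 36 rose in the knockout, 1 (Fn1) fell, 3 (Thbs1, Dcn and Vcan) did not pass and 2 were not tested, by a limma fit with terms for genotype and LPS. Over all 9385 genes tested, 6.39% rose and 3.12% fell, a share set beside genes that were picked with their behaviour known. The median difference over the 42 genes was 4.14 with LPS and 4.76 without (log2, knockout minus wild type), against 0.044 and 0.072 over all genes tested. Both knockout arrays lay above both wild-type arrays for 37 of the 42 genes, as for 15.6% of all 18193 genes. Below, this is called no overlap of the genotypes, although the 2 arrays of a genotype differ in LPS and are not replicates. In 15 of the 42 the difference was 5 or more in both states, which 0.148% of all genes reached. At 2-fold, 36 of the 40 genes at the floor with LPS were higher in the knockout and 0 lower (all genes: 9.76% and 5.65%), and without LPS 36 of 39 and 0 (all genes: 9.54% and 5.74%).

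The fit has 1 residual degree of freedom, because each group has 1 array, and it measures the spread only as the departure from additive effects. A gene under the floor in wild type enters the test only if it is higher in the knockout. This held for 21 of the 42 genes, for which the wild-type value is a background reading and the size of the difference is uncertain. They were Col3a1, Col5a1, Col5a2, Col4a1, Col6a1, Col6a2, Col6a3, Col8a1, Col12a1, Col18a1, Mgp, Thbs2, Postn, Nid1, Dcn, Has2, Serpinh1, Loxl1, Myl9, Tpm2 and Pdgfra. The floor fixed the direction of their difference, so that their calls and adjusted p, here and below, add no support. Of the 14 genes at or above the floor on both wild-type arrays, 11 rose, 1 fell and 2 did not pass. No share was taken over all genes at the floor on both wild-type arrays, so that these counts have no background beside them. Without the LPS term in the fit, the genotype call was lost for 12 genes, with adjusted p from 0.0509 to 0.691: Col5a1, Col4a2, Col12a1, Col18a1, Fn1, Fstl1, Igfbp4, Loxl3, Timp3, Tpm1, Pdgfra and Pdgfrb. In a bulk culture, more cells of a type and more RNA per cell cannot be told apart.

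**Figure D1:**
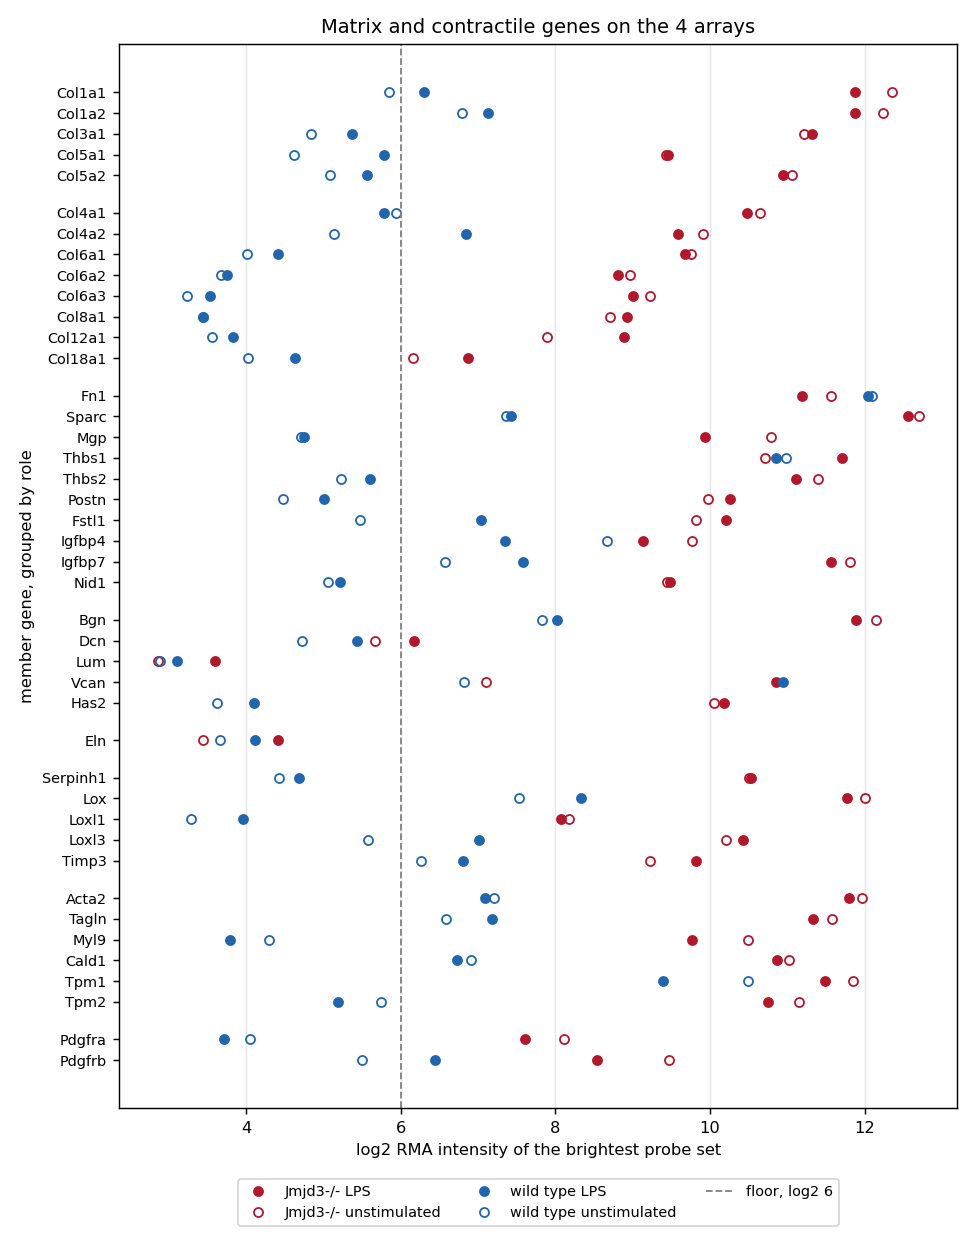
Log2 RMA intensity (x axis) of the brightest probe set of each of the 42 genes (y axis, grouped by role), with 1 point per array: red for Jmjd3-/-, blue for wild type, filled for LPS, open for unstimulated. Both red points lie right of both blue points for 37 genes, and Fn1, Thbs1, Vcan, Lum and Eln are the exceptions.

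The fibrillar collagens had the largest median difference of the groups of genes by role, 5.38 with LPS and 5.96 without. The other collagens were close, at 5.05 with LPS and 5.02 without. Many of these differences start from wild-type readings under the floor, so that the order of the groups is uncertain. Col1a1, an alpha chain of type I collagen, read 11.87 and 12.35 in Jmjd3-/- cells, against 6.30 and 5.84 in wild-type cells. Col1a2, its partner chain, read 11.87 and 12.24 in Jmjd3-/- cells, against 7.13 and 6.80 in wild type. Col3a1, the chain of type III collagen, read 11.32 and 11.22 in Jmjd3-/- cells, against 5.37 and 4.83 in wild type. For all 3 both knockout arrays were high and both wild-type arrays were low or near background, with no overlap. Col1a1 rose by 6.04 with a standard error of 0.28, Col1a2 by 5.09 ± 0.24 and Col3a1 by 6.17 ± 0.21 (limma, Benjamini-Hochberg adjusted p = 0.00131 for each). The Col1a2 increase is 34.1-fold on this probe set, and its size depends on the probe set: another read 11.33 and 11.52 in Jmjd3-/- cells, against 4.46 and 4.43 in wild type, differences of 6.87 and 7.09.

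The chains of type V collagen, which is built into type I fibrils, followed. Col5a2 read 10.94 and 11.05 in Jmjd3-/- cells, against 5.56 and 5.09 in wild-type cells, and Col5a1 read 9.46 and 9.43 in Jmjd3-/- cells, against 5.78 and 4.62 in wild type. Both genes were high on the knockout arrays and under the floor on the wild-type arrays. Col5a2 rose by 5.67 and Col5a1 by 4.25 (limma, Benjamini-Hochberg adjusted p = 0.00131 and 0.0032). All probe sets of the 5 fibrillar collagens that reached the floor were higher in the knockout in both states. Where wild type was under the floor, a probe set was counted only if it was high in the knockout.

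All 8 other collagens rose in the knockout as well. Type VI collagen forms beaded filaments around cells, and its chains Col6a1, Col6a2 and Col6a3 read between 8.81 and 9.75 on the knockout arrays, against 3.24 to 4.41 on the wild-type arrays. The increases were 5.50, 5.17 and 5.72 (limma, Benjamini-Hochberg adjusted p = 0.00131 for each), with wild type near background throughout. These genes entered the test only through the knockout arrays, so that the adjusted p adds no support. The network-forming chain Col8a1 rose by 5.38 and the fibril-associated Col12a1 by 4.69. Basement membrane collagen IV was less uniform. Col4a1 read 10.48 and 10.64 in Jmjd3-/- cells, against 5.79 and 5.94 in wild type, whereas its partner Col4a2 read 9.59 and 9.91 in Jmjd3-/- cells, against 6.84 and 5.14 in wild type. Thus Col4a1 differed by 4.69 with LPS and 4.71 without, and Col4a2 by 2.75 with LPS and 4.77 without. Col18a1, a basement membrane collagen that is the source of endostatin, had the smallest increase of the collagens at 2.18 ± 0.34 (limma, Benjamini-Hochberg adjusted p = 0.0248), from 6.86 and 6.15 in Jmjd3-/- cells against 4.63 and 4.03 in wild type.

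Enzymes and the chaperone that assemble collagen rose with it. Serpinh1, the collagen chaperone, read 10.52 and 10.51 in Jmjd3-/- cells, against 4.68 and 4.43 in wild-type cells. Lox, a lysyl oxidase, read 11.77 and 12.01 in Jmjd3-/- cells, against 8.33 and 7.53 in wild type. Serpinh1 was thus near background in wild type, while Lox was well past the floor there, and the genotypes did not overlap for either gene. The increases were 5.96 ± 0.19 for Serpinh1 and 3.96 ± 0.29 for Lox (limma, Benjamini-Hochberg adjusted p = 0.00131 and 0.00304). The related oxidases Loxl1 and Loxl3 rose by 4.50 and 4.02. Timp3, a matrix-bound inhibitor of metalloproteinases, read 9.81 and 9.22 in Jmjd3-/- cells, against 6.81 and 6.26 in wild type, a 7.90-fold increase (limma, Benjamini-Hochberg adjusted p = 0.00216).

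Glycoproteins fell into 2 kinds. Sparc, a collagen-binding matricellular protein, read 12.56 and 12.71 in Jmjd3-/- cells, against 7.43 and 7.36 in wild-type cells. Thbs2, a matricellular thrombospondin, read 11.11 and 11.39 in Jmjd3-/- cells, against 5.60 and 5.23 in wild type. These 2 genes separated the genotypes without overlap, and so did Mgp, an inhibitor of calcification, Postn, which binds collagen, Nid1, which links laminin to collagen IV, Fstl1 and Igfbp7. Sparc rose by 5.24 ± 0.18, Thbs2 by 5.84 ± 0.23, Mgp by 5.63, Postn by 5.37, Igfbp7 by 4.60, Nid1 by 4.33 and Fstl1 by 3.75 (limma, Benjamini-Hochberg adjusted p between 0.00131 and 0.00469).

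The other kind was already bright in wild type. Fn1, fibronectin, read 11.19 and 11.57 in Jmjd3-/- cells, against 12.04 and 12.10 in wild-type cells. Thbs1, thrombospondin 1, read 11.71 and 10.71 in Jmjd3-/- cells, against 10.85 and 10.98 in wild type. Fn1 was lower on both knockout arrays, and the Thbs1 values of the genotypes overlapped. Fn1 fell by 0.69 ± 0.14 (limma, Benjamini-Hochberg adjusted p = 0.0493), a call lost in 5 of 11 other settings. Its dimmer probe set was higher in the knockout with LPS, at 5.17 against 4.41, where both values are under the floor. Without LPS that probe set was lower in the knockout, at 6.14 against 6.54. The Thbs1 difference of 0.29 ± 0.29 was not called (limma, Benjamini-Hochberg adjusted p = 0.591). Igfbp4, which binds insulin-like growth factors, separated the genotypes without overlap, as the first kind did, but by less. It read 9.13 and 9.77 in Jmjd3-/- cells, against 7.35 and 8.67 in wild type, and rose by 1.44 ± 0.24 (limma, Benjamini-Hochberg adjusted p = 0.0294). This call was lost with no intensity trend (adjusted p = 0.0547) and with no LPS term (0.691). It is the smallest of the 36 increases, and all 5 of its probe sets at the floor were higher in the knockout in both states.

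Proteoglycans did not move together. Bgn, a small leucine-rich proteoglycan that binds collagen, read 11.88 and 12.14 in Jmjd3-/- cells, against 8.02 and 7.83 in wild-type cells, and rose by 4.09 ± 0.20 (limma, Benjamini-Hochberg adjusted p = 0.00133). Its close relative Dcn read 6.17 and 5.66 in Jmjd3-/- cells, against 5.43 and 4.72 in wild type, and its difference of 0.84 ± 0.33 missed the threshold (limma, Benjamini-Hochberg adjusted p = 0.211). Lum, also of that family, read 3.60 and 2.86 in Jmjd3-/- cells, against 3.11 and 2.89 in wild type. Bgn was therefore high on both knockout arrays while Dcn crossed the floor on 1 knockout array and Lum on none. Has2, a hyaluronan synthase, had the largest genotype effect of the 42 genes on the probe sets used. It read 10.19 and 10.05 in Jmjd3-/- cells, against 4.10 and 3.62 in wild type, and rose by 6.26 ± 0.21 (limma, Benjamini-Hochberg adjusted p = 0.00131). Its other probe set differed by 5.11 with LPS and 4.00 without, and wild type was under the floor on both probe sets. Eln, the elastin gene, read 4.41 and 3.44 in Jmjd3-/- cells, against 4.11 and 3.66 in wild type, with the genotypes overlapping under the floor.

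All 6 contractile genes rose in the knockout. Acta2, smooth muscle actin, read 11.79 and 11.96 in Jmjd3-/- cells, against 7.09 and 7.21 in wild-type cells. Tagln, an actin-binding protein of smooth muscle, read 11.33 and 11.58 in Jmjd3-/- cells, against 7.18 and 6.58 in wild type. Myl9, a myosin regulatory light chain and the gene with the CArG box shown above, read 9.77 and 10.49 in Jmjd3-/- cells, against 3.80 and 4.30 in wild type. The knockout arrays were high for all 3, and wild type was past the floor for Acta2 and Tagln and near background for Myl9. Acta2 rose by 4.73 ± 0.18, Tagln by 4.57 ± 0.26 and Myl9 by 6.08 ± 0.20 (limma, Benjamini-Hochberg adjusted p = 0.00131, 0.00198 and 0.00131). The Acta2 probe set is of a class that can detect more than 1 transcript, and the other 2 probe sets of the gene stayed under the floor on every array.

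Cald1, caldesmon, rose by 4.12, with 10.87 and 11.01 in Jmjd3-/- cells against 6.73 and 6.90 in wild type. The tropomyosins differed from each other. Tpm2 read 10.75 and 11.14 in Jmjd3-/- cells, against 5.19 and 5.74 in wild type, whereas Tpm1 read 11.49 and 11.85 in Jmjd3-/- cells, against 9.39 and 10.48 in wild type. On this probe set Tpm1 was thus bright on all 4 arrays and had the smaller increase, 1.73 ± 0.22, against 5.48 ± 0.18 for Tpm2 (limma, Benjamini-Hochberg adjusted p = 0.015 and 0.00131). Another Tpm1 probe set read 10.15 and 10.18 in Jmjd3-/- cells, against 6.94 and 7.30 in wild type, differences of 3.21 and 2.88.

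Both receptors for platelet-derived growth factor, which mesenchymal cells carry, rose. Pdgfra read 7.60 and 8.11 in Jmjd3-/- cells, against 3.72 and 4.05 in wild-type cells, and Pdgfrb read 8.54 and 9.46 in Jmjd3-/- cells, against 6.44 and 5.50 in wild type. The genotypes did not overlap for either gene, and the Pdgfrb values lay closest on the LPS arrays. The increases were 3.97 ± 0.28 for Pdgfra and 3.03 ± 0.46 for Pdgfrb (limma, Benjamini-Hochberg adjusted p = 0.00291 and 0.0244). The Pdgfrb call was lost with no intensity trend or a robust prior (adjusted p = 0.0526 in both), and with no LPS term (0.144).

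Of these genes 1 rose and 1 fell with LPS. Versican, the large proteoglycan encoded by Vcan, was the gene that rose: it read 10.86 with LPS and 7.11 without in Jmjd3-/- cells, and 10.94 and 6.82 in wild-type cells. The LPS arrays of both genotypes were high and the unstimulated arrays low, while the genotypes lay close in each state. Vcan rose with LPS by 3.94 ± 0.20 (limma, Benjamini-Hochberg adjusted p = 0.00238), and its genotype effect was 0.10 ± 0.20 (limma, Benjamini-Hochberg adjusted p = 0.792). Igfbp4 fell with LPS by 0.98 ± 0.24 (limma, Benjamini-Hochberg adjusted p = 0.0391), a call lost after median centring (adjusted p = 0.053), with no intensity trend (0.0613) and with no genotype term (0.448). The other 38 tested genes did not pass, where 11.2% of all genes rose and 18.8% fell.

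In Jmjd3-/- cells alone, Vcan was the only 1 of the 40 genes at the floor to differ by 2-fold or more with LPS, at 3.75 (all genes: 11.0% higher and 15.5% lower). Thbs1 and Col12a1 were just under 2-fold, at 0.998 and 0.988. In wild-type cells 19 of the genes reached the floor on an array compared, and 5 were 2-fold or more higher with LPS and 2 lower (all genes: 9.86% and 14.3%). Higher were Vcan (4.12), Col4a2 (1.70), Fstl1 (1.56), Loxl3 (1.43) and Igfbp7 (1.01), and lower were Igfbp4 (-1.32) and Tpm1 (-1.10). Col4a2, Fstl1 and Loxl3 were under the floor in unstimulated wild-type cells, and with 64 added to the linear intensities 1 of these genes, in place of 5, was 2-fold or more higher.

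**Figure D2:**
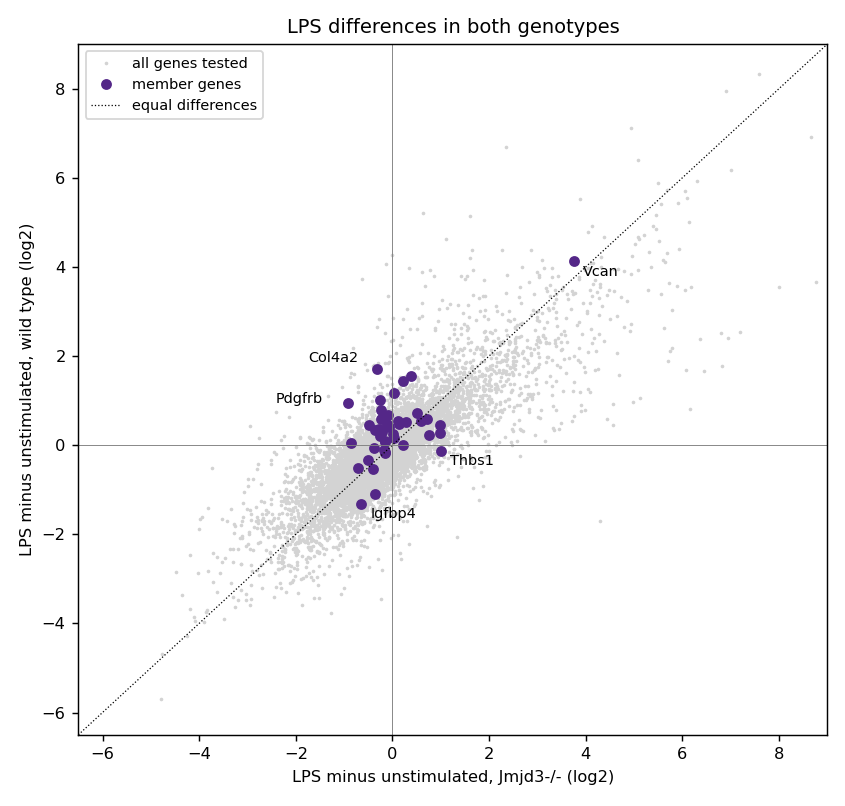
LPS minus unstimulated difference (log2) in Jmjd3-/- cells (x axis) and wild-type cells (y axis), with 1 point per gene: grey for all 9385 genes tested, purple for the 42 matrix and contractile genes. Vcan stands at 3.75 and 4.12, and most purple points lie within 1 of zero on both axes.

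Most genotype differences were a little smaller with LPS than without. The LPS response in the knockout was below that in wild type for 31 of the 40 genes, where 52.4% of all genes were below, and by 2-fold or more for 7 of them (all genes: 4.73%). These were Col4a2 (-2.02), Pdgfrb (-1.87), Igfbp7 (-1.25), Loxl3 (-1.21), Fstl1 (-1.17), Col5a1 (-1.13) and Lox (-1.03). In the opposite direction only Thbs1 passed 2-fold, at 1.12 (all genes: 5.19%). With 1 array per group these differences between responses have no test. For 21 of the 40 genes both wild-type arrays were under the floor, so that the wild-type response is a difference of background readings. Among those 2-fold or more below, Col5a1 was under the floor on both wild-type arrays. Col4a2, Pdgfrb, Loxl3 and Fstl1 were under it in unstimulated wild-type cells. For Pdgfrb, LPS minus unstimulated was -0.93 in Jmjd3-/- cells and 0.94 in wild-type cells on the probe set used. Its other probe set gave -0.28 and 2.10, so that the fall in the knockout depends on the probe set. Unstimulated wild type was under the floor on both probe sets. The genotype differences of the 2 states, which share no array, correlated across the 42 genes with Pearson's r = 0.949 and Spearman's rho = 0.929, as a description of genes that share the same arrays. The labels do not say that the 2 states of a genotype came from separate animals, so that this is no independent repeat. No correlation over all genes was taken.

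**Figure D3:**
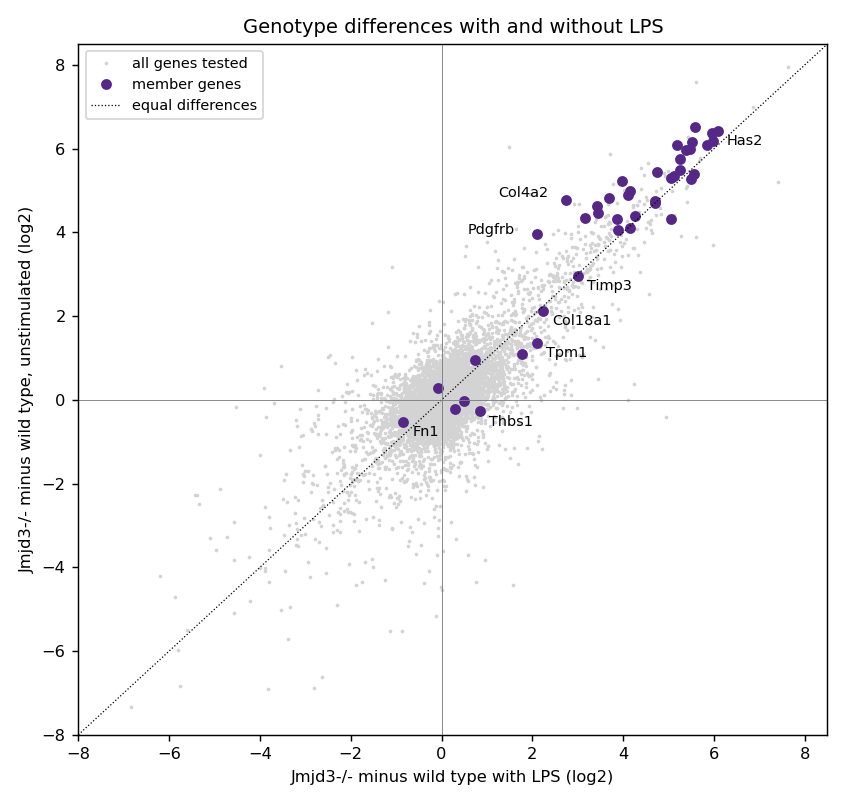
Jmjd3-/- minus wild-type difference (log2) with LPS (x axis) and unstimulated (y axis), with 1 point per gene: grey for all 9385 genes tested, purple for the 42 matrix and contractile genes, dotted where both are equal. Has2 stands at 6.09 and 6.43, Col4a2 at 2.75 and 4.77, Pdgfrb at 2.09 and 3.96, and Fn1 is below zero on both axes.

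Other genes of the same pathways, taken from lists chosen with earlier results of these data known, moved in part. The counts below stand beside the 6.39% of all genes tested that rose and the 3.12% that fell. Among 22 collagen biosynthesis enzymes 9 rose in the knockout, none fell, 8 did not pass and 5 were under the floor. Pcolce, which enhances procollagen processing, rose by 4.67, and P4ha2, a prolyl hydroxylase subunit, by 3.13, while P4hb, which every secretory cell uses, read 11.93 and 12.34 in Jmjd3-/- cells and 11.80 and 12.47 in wild type. Of 25 further collagens 20 stayed under the floor on all arrays, 3 did not pass, and 2 rose, Col5a3 (3.43) and Col2a1 (2.73). In the basement membrane list 4 of 13 rose, led by the laminin chain Lamb1 (4.43). Over all measured genes of a list, median differences with LPS and without were 1.12 and 0.94 for the enzymes, 0.016 and 0.23 for further collagens, and -0.061 and 0.35 for basement membrane genes.

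Among 32 further matrix proteins 10 rose, none fell, 3 did not pass and 19 were under the floor on all arrays, with medians of 0.093 with LPS and 0.11 without. The 10 included the collagen-binding proteoglycans Ogn (4.65) and Fmod (4.46), the matricellular Ccn1 (4.49) and tenascin C, Tnc (3.85). In the contractile and cytoskeletal list 4 of 26 rose, 15 did not pass and 7 were under the floor, with medians of 0.12 and 0.41. Those that rose were Actg2, the enteric smooth muscle actin (5.46), Mylk, the myosin light chain kinase (4.79), Csrp2 (3.21) and Cnn2 (1.20), whereas Myh11 and Des, markers of mature smooth muscle and muscle, were under the floor on all arrays. Of 16 TGF-beta signalling genes 6 rose, 9 did not pass and 1 was under the floor, with medians of 0.21 and 0.31. The 6 included the latent TGF-beta binding proteins Ltbp1 (4.46) and Ltbp2 (4.17) and the ligands Tgfb2 (3.68) and Tgfb3 (3.48). None fell in either list.

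Among markers of other cell types some lists moved beside these genes and others held few calls, where 6.39% of all genes tested rose and 3.12% fell. Of 24 mesenchymal markers 8 rose, none fell, 6 did not pass and 10 were under the floor. The summed linear intensity of the list was 25803 and 27243 in Jmjd3-/- cells, against 17459 and 18189 in wild-type cells. Genes that were bright in wild type too weigh heavily in this sum. Vim read 13.52 and 13.43 in Jmjd3-/- cells, against 13.40 and 13.33 in wild type, and S100a4 12.14 and 12.81, against 10.75 and 11.24. Pdgfa read 11.79 and 12.44, against 9.79 and 11.93, while Pdpn read 11.17 and 8.74, against 11.62 and 8.83. The mesenchymal transcription factor gene Prrx1 rose by 5.21 and Twist1 by 3.20, and the fibroblast cadherin gene Cdh11 by 3.86. Thy1, a surface marker of many fibroblasts, read 4.02 and 4.07 in Jmjd3-/- cells, against 6.32 and 5.22 in wild type, and was not called. Of 13 marrow stroma, bone and cartilage markers 4 rose, none fell, 3 did not pass and 6 were under the floor on all arrays. Those that rose included the marrow stromal chemokine Cxcl12 (5.26) and Alpl (3.61). The marrow stromal genes Kitl, Foxc1 and Ebf3 did not pass, and Lepr, Adipoq, Dmp1 and Ibsp were under the floor. Summed intensity of that list was 3759 and 3126 in Jmjd3-/- cells, against 1955 and 1184 in wild type. Fabp4 weighs most in this sum, at 11.22 and 10.94 in Jmjd3-/- cells and 10.48 and 9.80 in wild type.

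Granulocyte precursor markers rose in 10 of 12 cases, Ngp by 7.78 and Mpo by 6.93, and Mmp8 fell by 2.92, with a summed intensity of 38332 and 38108 in Jmjd3-/- cells, against 4779 and 3477 in wild type. Of 13 endothelial markers 11 were under the floor, Cdh5 and Pecam1 among them, and the other 2, Kdr and Vwf, were not called. In the pericyte and smooth muscle list 8 of 10, Rgs5, Myh11 and Cnn1 among them, were under the floor, 1 did not pass and 1 rose, Notch3 (2.46). In the epithelial list Cdh1 fell by 3.77 and the other 9 were under the floor. Of 12 macrophage markers 1 rose (Fcgr1, 0.76), 1 fell (Itgam, by 1.04) and 10 did not pass, with a summed intensity of 51917 and 53983 in Jmjd3-/- cells, against 53077 and 51410 in wild type. The part that other cell types in the cultures have in the genotype differences of collagen, matrix and contractile genes was not tested.

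**Figure D4:**
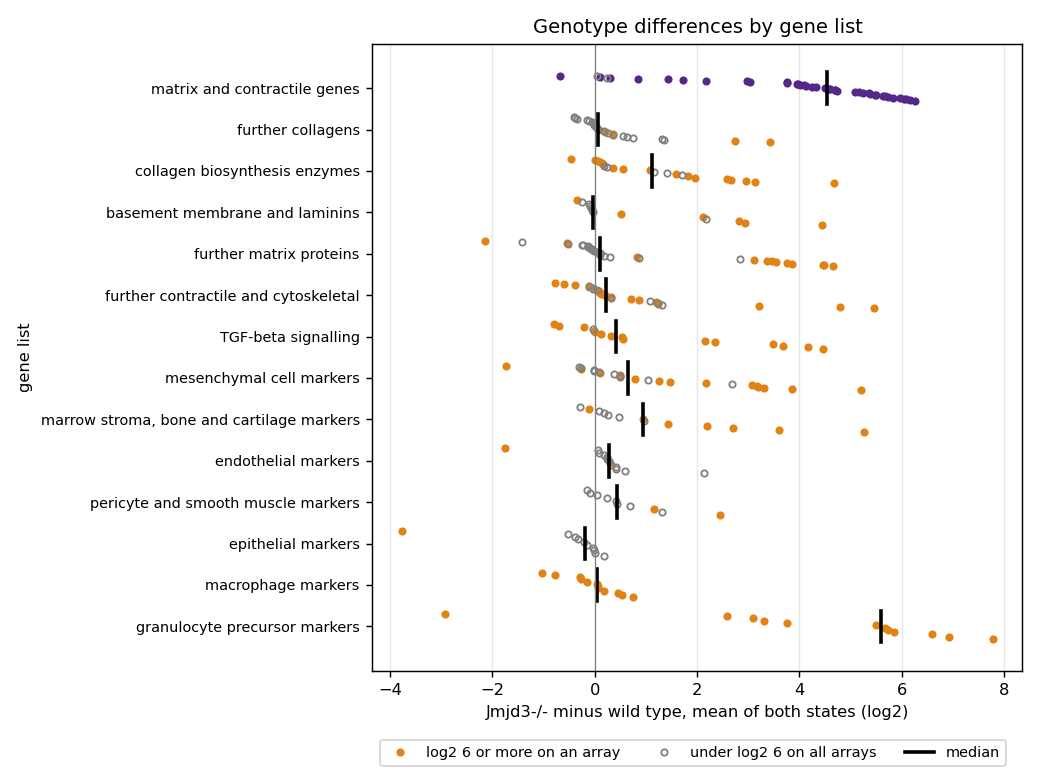
Jmjd3-/- minus wild-type difference (log2, mean of both states, x axis) for each gene of the set and of the 13 comparison lists (y axis). Purple and orange points reached log2 6 on an array, open grey points did not, and black bars are medians over all measured genes of a list; the macrophage markers lie within about 1 of zero and the granulocyte markers reach 7.78.

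Separate probe sets of a gene mostly gave the same direction where they reached the floor. The 42 genes had 107 probe sets, of which 77 reached the floor. For 26 genes 2 or more did so, and in 23 of these every such probe set was higher in the knockout in both states. A probe set under the floor on both wild-type arrays was counted only if a knockout array was higher, which fixed its direction there. Probe sets left out included some lower in the knockout, such as 1 of Nid1 (-0.27 with LPS and -0.26 without). No share over all genes was taken. The exceptions among the 26 genes were Fn1, Thbs1 and Vcan.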

How the data were processed

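The authors deposited log2 intensities of probe sets after RMA, per the submitters' processing notes. RNA was biotin-labelled after NuGEN Ovation amplification and hybridised to Affymetrix arrays, per the labels' protocols. The RMA version and settings are not stated there. Of 45101 probe sets, 34945 named 1 gene, and 34741 of these matched RefSeq (GRCm38.p6) by gene identifier. The brightest probe set per gene gave 18193 genes.

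Differences are between log2 values, and folds are 2 raised to them. Genotype and LPS effects were tested with limma 3.58.1 (R 4.3.3) in an additive model with intensity trend on 4 arrays and the 9385 genes at or above log2 6 on an array. The fit had 1 residual degree of freedom and a prior of 3.84, and calls were made at a Benjamini-Hochberg adjusted p below 0.05. The script was tested on simulated data. Rose and fell are kept for such calls, ± gives the standard error, and the number of arrays limits the precision. Differences between 2 arrays have no test. Tables used Python 3.11.15 with pandas 2.3.3. All 43 genes could be named. From the other lists, named genes were up to 5 with the largest genotype effect plus defining markers under the floor. Csf1r, P4hb, Thy1, Mmp8, Vim, S100a4, Pdgfa, Pdpn, Fabp4 and Kitl were added after their values were seen. Members and lists were chosen with earlier results of these data known. Alternatives were other floors, probe set choices, normalizations, priors, a pseudocount of 64, and no term for the other factor.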

Additional observations from a re-analysis of the deposited data

How the results depend on the processing

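Between 25 and 36 genes rose with genotype under the 11 alternatives, against 36 in the reported fit, with 25 when the LPS term was left out and 31 or 32 with other probe set choices, where 35 and 34 genes were tested. The single gene that fell, Fn1, became 0 with no floor, the median of probe sets, no lettered probe set classes, no intensity trend, or no LPS term. With LPS, the count of 1 gene that rose became 0 with the median of probe sets, because the Vcan median lies under the floor and Vcan was not tested there; 2 genes, Igfbp4 and Fn1, fell under it. The count of 1 that fell, Igfbp4, became 2 after quantile normalization. It became 0 without lettered classes, where Igfbp4 has no probe set and was not tested, and the call was lost after median centring, with no intensity trend, or with no genotype term. With 64 added to the linear values the median genotype difference over genes at the floor was 3.08 with LPS and 3.53 unstimulated, against 4.21 and 4.81, and 1 gene in place of 5 was 2-fold or more higher with LPS in wild type. Of the genes 2-fold or more lower there, 1 in place of 2 was left without lettered classes. In the knockout, 2 genes after quantile normalization and 3 after median centring, in place of 1, were 2-fold or more higher with LPS. The cause of the other shifts was not tested. No called gene changed sign in these settings. No paired analysis was possible because each group has 1 array and the labels number no replicates; LPS state or genotype served as the block in the additive fit. Signal near background limits genes under log2 6, and leaving out an array leaves no residual degree of freedom.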
